A study of Rattus norvegicus with 6 samples.

Results

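Spinal cord expression of the interferon-gamma induced GTPases was compared between rats with bone cancer pain (BCP) and sham-operated rats. The genes were chosen by symbol, as the rows of the deposited gene table named Gbp1, Gbp2, Gbp4, Gbp5, Gbp7, Igtp, Irgm or Ifi47. No value entered that rule, but earlier results of these data were known when the symbols were listed. Rows were found for 7 of the 8 symbols among 30957 gene rows, and all 7 passed the filter on low counts that left 14908 genes for testing. No row carried the name Gbp7, and the row whose number is that gene's RefSeq identifier is described below with the related genes. The members comprised 4 guanylate-binding proteins (GBPs: Gbp1, Gbp2, Gbp4 and Gbp5) and 3 immunity-related GTPases (IRGs: Igtp, Irgm and Ifi47).

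All 6 samples were the ipsilateral side of the lumbar enlargement of the cord, taken from female adult Wistar rats on day 14, with the meninges stripped off. The 3 BCP samples came from rats that had received living Walker 256 cells, a rat mammary carcinoma line, in the marrow cavity of the left tibia. The 3 sham samples came from rats that had the same operation with Walker 256 cells killed by heat, so both groups had a perforated bone and an injection of foreign material, and neither was untreated. Libraries were made from ribosome-depleted total RNA with a kit that keeps strand information. Each library held the RNA of a piece of whole cord, so a higher level may stand for more cells of a type or for more RNA per cell, which cannot be told apart.

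GBPs and IRGs are GTPases of cell-autonomous immunity. They are nearly silent in many resting cells and are transcribed when interferon-gamma binds its receptor and the kinases Jak1 and Jak2 become active. The factor Irf1, which the signal induces, binds the genes' promoters. GBPs are large GTPases that assemble on bacteria and on the vacuoles of parasites and help inflammasomes to form. IRGs are smaller GTPases. In rodents they are divided into regulators that sit on the membranes of the cell itself (Irgm and Igtp) and effectors that attack vacuoles (Ifi47). In the cord GBPs and IRGs can be made by microglia, astrocytes, endothelial cells and incoming leukocytes.

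The promoters were read from RefSeq in the build GRCr8, for all 8 symbols including Gbp7, because the members share this regulation in the textbook account. An interferon-stimulated response element core (ISRE core, GAAA, then 2 bases of any kind, then GAAA, on either strand) stood within 250 bases before the start in 7 of the 9 promoter entries of the 8 genes, and in 3.41% of all 33469 entries. The entries without it were that of Ifi47 and the entry at the first start of Gbp1, whose second listed start had it. A gamma-activated site core (GAS core, TTCNNNGAA, which reads the same way on both strands) stood in 4 of the 9, namely those of Igtp, Irgm, Ifi47 and Gbp7, and in 7.67% of all entries. No ISRE core overlapped a GAS core in the sequences shown. The 130 bases before the start are shown for 4 members whose table entry begins at the gene's own start and holds a core, because they give the different arrangements, an ISRE core alone, a GAS core alone and both. Capitals mark the cores, and each sequence is from the plus strand, on which all 4 genes lie.
Gbp2 (chr2:234005597-234005726): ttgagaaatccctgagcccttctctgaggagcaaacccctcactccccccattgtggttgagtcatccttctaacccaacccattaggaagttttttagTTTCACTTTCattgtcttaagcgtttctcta
Gbp5 (chr2:233910869-233910998): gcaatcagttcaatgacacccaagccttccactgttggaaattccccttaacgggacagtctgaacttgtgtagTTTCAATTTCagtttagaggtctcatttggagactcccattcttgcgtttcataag
Igtp (chr10:42874917-42875046): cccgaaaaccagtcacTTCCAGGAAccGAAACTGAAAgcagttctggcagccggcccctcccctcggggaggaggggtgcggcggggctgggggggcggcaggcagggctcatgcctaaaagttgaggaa
Ifi47 (chr10:33798614-33798743): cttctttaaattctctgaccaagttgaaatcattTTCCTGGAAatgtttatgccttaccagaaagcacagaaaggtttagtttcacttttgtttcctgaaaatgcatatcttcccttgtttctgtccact
In Gbp2 the ISRE core, read on the opposite strand, began 31 bases before the start, and in Gbp5 56 bases before it. Igtp had the GAS core 114 bases before the start and the ISRE core 103 bases before it. Ifi47 had a GAS core 96 bases before the start and another 212 bases before it, outside the stretch shown. A match of these letters is a description of the sequence and was not tied to binding in these rats.

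The libraries held 11779485 to 15004290 gene counts, and the 7 members together held 1246 to 3791 counts in sham libraries and 8655 to 14336 in BCP libraries. Among all tested genes, 946 were up-regulated (6.35%) and 16 down-regulated (0.107%) at an adjusted p under 0.05 and a change of more than 2-fold, which are the thresholds used throughout. Neuron, astrocyte and oligodendrocyte markers were abundant in every library. The labels name replicates but do not say that each is 1 animal, so p-values measure the spread between these libraries. Counting intervals and floors cover counting error only.

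The 3 IRGs were all up-regulated in BCP rats, by 3.18-fold to 10.7-fold. Ifi47 (ENSRNOG00000002470, chr10:34277993-34285623 in Rnor_6.0), an effector IRG, had the largest change of the members. Its level was 11.5, 10.8 and 4.59 CPM (read counts scaled to library size with TMM factors) in sham libraries 1, 2 and 3 and 80.8, 101 and 102 CPM in BCP libraries 1, 2 and 3. The lowest BCP library was thus 7.02 times the highest sham library. The mean rose from 8.96 ± 3.80 to 94.7 ± 11.99 CPM (SD, n = 3 each), a log2 fold change of 3.41 (SE 0.34, edgeR adjusted p = 0.00294).

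Igtp (ENSRNOG00000027008, chr10:43613931-43653390), a regulatory IRG also known as Irgm3 in mice, stood at 49.7, 43.4 and 25.3 CPM in sham libraries and at 152, 221 and 187 CPM in BCP libraries. It was 4.75-fold higher in BCP rats (log2 fold change 2.25, SE 0.31, edgeR adjusted p = 0.00922). The groups were well apart, with the lowest BCP library at 3.07 times the highest sham library. RefSeq places Irgm2 directly after Igtp, the gene table has no row for Irgm2, and the Igtp row spans 39.5 kb, so its counts may include both genes. Irgm (ENSRNOG00000031138, chr10:34213936-34221928), the regulatory IRG known for its part in autophagy and in the integrity of mitochondria and lysosomes, stood at 38.4, 38.3 and 23.9 CPM in sham libraries. In BCP libraries it stood at 90.0, 119 and 110 CPM. Its log2 fold change was 1.67 (SE 0.24, edgeR adjusted p = 0.00924), and the lowest BCP library was 2.34 times the highest sham library.

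The 4 GBPs were higher in every BCP library than in every sham library, but 0 of 4 passed the thresholds in edgeR, and their sham libraries differed widely. Gbp2 (ENSRNOG00000031743, chr2:248276709-248293784), a prenylated GBP that goes to vacuole membranes, stood at 118, 61.9 and 17.3 CPM in sham libraries. In BCP libraries it stood at 295, 421 and 387 CPM. The sham libraries spanned 6.84-fold and the BCP libraries 1.43-fold. The means were 65.8 ± 50.6 and 368 ± 65.3 CPM (SD, n = 3 each), 5.62-fold apart, with a log2 fold change of 2.49 (SE 0.72, edgeR adjusted p = 0.0768).

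Gbp5 (ENSRNOG00000032240, chr2:248178389-248197160), known for promoting assembly of the NLRP3 inflammasome, repeated this pattern at a lower level. Its values were 55.0, 28.3 and 7.97 CPM in sham libraries and 95.6, 137 and 113 CPM in BCP libraries, and the lowest BCP library was 1.74 times the highest sham library. The log2 fold change was 1.94 (SE 0.68, edgeR adjusted p = 0.122). Gbp4 (ENSRNOG00000028768, chr2:248249468-248263168) and Gbp1 (ENSRNOG00000023943, chr2:248398917-248409570) were the members with the smallest differences. Gbp4 stood at 12.9, 11.4 and 4.73 CPM in sham libraries and 13.5, 19.4 and 17.6 CPM in BCP libraries, so that BCP library 1 was only 1.05 times sham library 1 (log2 fold change 0.81, SE 0.40, edgeR adjusted p = 0.236). Gbp1 had 42, 40 and 6 counts in sham libraries and 53, 81 and 51 counts in BCP libraries, that is, 3.20, 2.79 and 0.405 against 4.48, 5.79 and 3.86 CPM (log2 fold change 1.16, SE 0.59, edgeR adjusted p = 0.229). GBP genes are close paralogs, so reads that fit more than 1 of them may have been split or lost in the authors' counting, which limits the values of single GBPs.

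**Figure D1:**
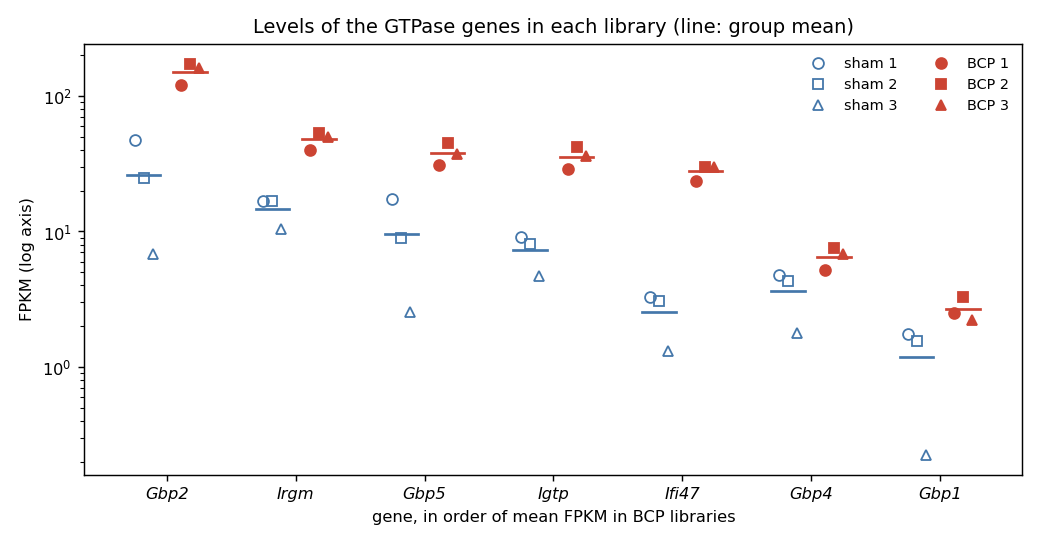
Level of each member in each library in FPKM on a log axis, with genes in order of their mean in BCP libraries, open blue symbols for sham and filled red symbols for BCP libraries, and lines for group means. Sham library 3 is lowest among sham libraries for all 7 genes, and every BCP library lies above every sham library.

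Of the 7 members, 3 passed the thresholds upward, against 6.35% of all tested genes, and 5 had an unadjusted p under 0.05, against 19.6% of all tested genes that were higher at that p. The median log2 fold change was 1.94 for the members and -0.0143 for all tested genes. Every BCP library exceeded every sham library for 7 of 7 members, which held for 21.7% of all tested genes. DESeq2 passed 5 of 7, adding Gbp2 (adjusted p = 0.00429) and Gbp5 (adjusted p = 0.0380), and edgeR without robust estimation also passed 5.

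The 3 members that passed were those with the smallest spread over sham libraries. Sham library 3 was the lowest sham library for 7 of 7 members and for 35.8% of all tested genes. The members' range over sham libraries had a median of 1.42 on the log2 scale (2.68 for GBPs and 0.97 for IRGs), against 0.20 for all tested genes. For Gbp2 the sham range exceeded that of 99.9% of tested genes and for Irgm, the least variable member, that of 90.4%. In BCP libraries the median range of the members was 0.51, against 0.20 for all tested genes. BCP library 2 was the highest BCP library for 6 of 7 members, the exception being Ifi47, where BCP library 3 was.

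Leaving out sham library 3 kept 3 members past the thresholds and made every member's log2 fold change smaller. It fell to 2.03 for Gbp2 (edgeR adjusted p = 0.0544), to 1.47 for Gbp5 (0.102), to 0.66 for Gbp1 and to 0.48 for Gbp4 (0.0269, under the fold threshold). For the IRGs it was 3.09 for Ifi47, 2.01 for Igtp and 1.47 for Irgm. Whether the fold changes of GBPs and IRGs differ was not tested on the counts. The ratio of their summed FPKM is compared between groups below. With counts summed over the 6 GBP rows of chromosome 2 (the 4 members with Gbp3 and LOC685067, both described below) the log2 fold change was 2.21 (edgeR adjusted p = 0.0899), and over the 3 IRG rows 2.25 (adjusted p = 0.00779).

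**Figure D2:**
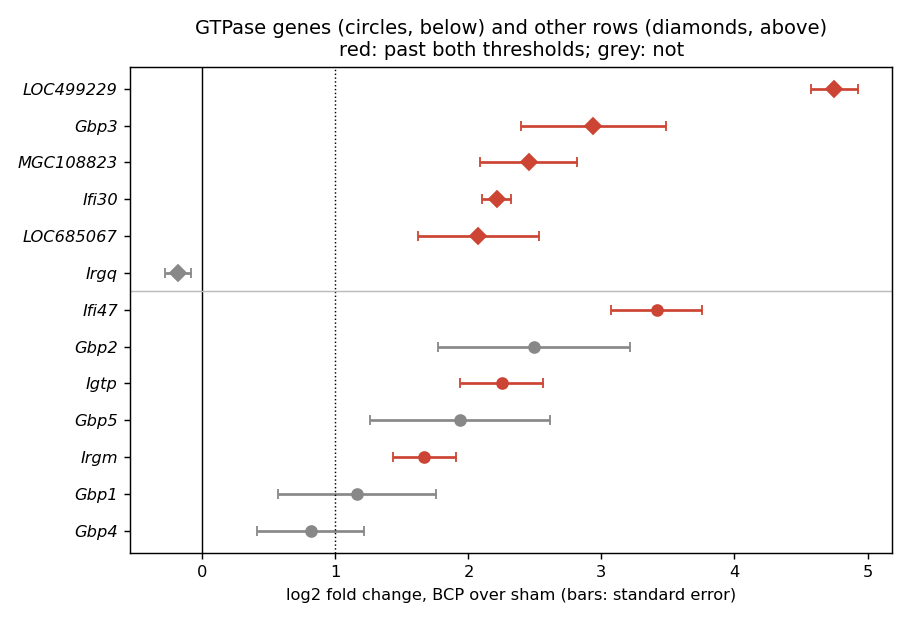
Log2 fold change of BCP over sham with its standard error for the 7 members (circles) and for the related rows tested (diamonds, without Irg1, which had 3 sham counts), with a dotted line at a 2-fold change. The 3 IRG members are red, past both thresholds, and the 4 GBP members are grey with the longer error bars.

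Levels were compared between genes in FPKM, which accounts for transcript length. In BCP libraries Gbp2 was the most abundant member at 150 ± 27.6 FPKM (SD, n = 3), and its lowest library, at 119 FPKM, was above every library of every other member. It was followed by Irgm (47.6 ± 6.96 FPKM), Gbp5 (37.5 ± 6.95), Igtp (35.5 ± 6.72) and Ifi47 (27.7 ± 3.71). The ranges of neighbours in this run overlapped between libraries, but within each of the 3 BCP libraries the 4 genes stood in this order. Differences between neighbours were not tested. Gbp4 (6.50 ± 1.20 FPKM) and Gbp1 (2.68 ± 0.564 FPKM) were lower, and their ranges overlapped neither each other nor those of the genes above. In sham libraries the means ran from 26.1 ± 20.0 FPKM for Gbp2 through 14.6 ± 3.64 for Irgm, 9.63 ± 7.43 for Gbp5, 7.29 ± 2.32 for Igtp, 3.63 ± 1.62 for Gbp4 and 2.55 ± 1.08 for Ifi47 to 1.18 ± 0.835 for Gbp1. Ifi47 was below Gbp4 in all 3 sham libraries and above it in all 3 BCP libraries. Gbp2 was above Irgm in sham libraries 1 and 2, at 46.8 and 24.6 against 16.7 FPKM in both, and below it in sham library 3, at 6.88 against 10.4 FPKM.

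The make-up of the summed FPKM was nearly constant among BCP libraries and varied among sham libraries. Gbp2 made up 46.9, 36.6 and 24.7% of the sum in sham libraries and 47.7, 48.8 and 49.7% in BCP libraries. Irgm made up 16.7, 24.9 and 37.4% in sham libraries and 16.0, 15.1 and 15.4% in BCP libraries. The share of Ifi47 was 4.18 ± 0.792% in sham and 9.05 ± 0.549% in BCP libraries (SD, n = 3 each), and that of Gbp4 was 5.86 ± 0.896% and 2.11 ± 0.0327%. For these 4 genes the groups did not overlap, with a two-sided exact permutation p of 0.1 each (0.175 adjusted over the 7 members), the smallest that 3 against 3 libraries allow. The shares of Gbp5 (exact permutation p = 0.7), Igtp (p = 0.7) and Gbp1 (p = 0.3) overlapped between groups.

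**Figure D3:**
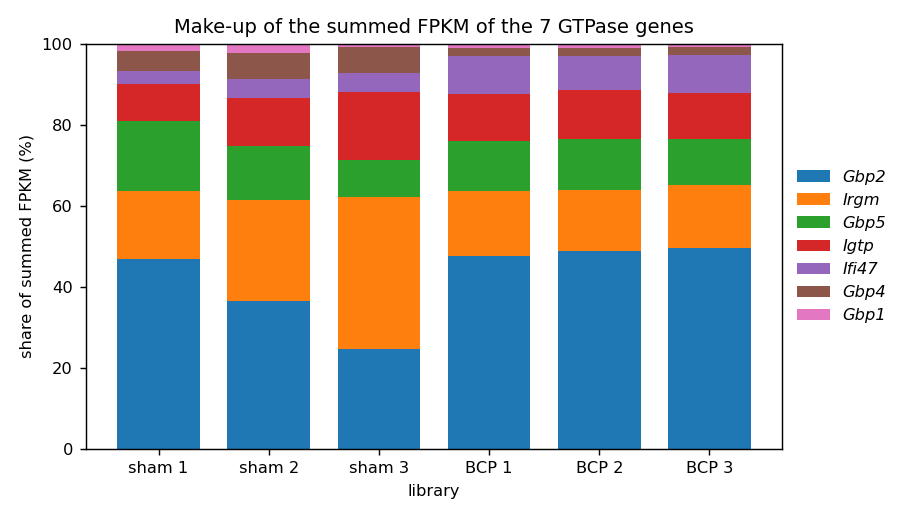
Share of each member in the summed FPKM of the 7 genes, as stacked bars in percent for each of the 6 libraries. The 3 BCP bars are nearly alike, while from sham library 1 to sham library 3 Gbp2 takes 46.9, 36.6 and 24.7% and Irgm 16.7, 24.9 and 37.4%.

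Summed by family, the GBPs stood at 70.7, 39.5 and 11.4 FPKM in sham libraries and at 158, 228 and 205 FPKM in BCP libraries. The IRGs stood at 29.1, 27.9 and 16.4 FPKM in sham libraries and at 92.0, 125 and 115 FPKM in BCP libraries. The ratio of the sums of GBPs to IRGs was 2.43, 1.42 and 0.696 in sham libraries and 1.72, 1.82 and 1.78 in BCP libraries. The BCP ratios thus lay inside the range of the sham ratios (two-sided exact permutation p = 0.7).

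A search by name and description for other rows of the same families found 10 rows, of which 6 were tested and 5 were up-regulated (6.35% of all tested genes were). Without Ifi30 and Irg1, which matched by words and encode no GTPase, 4 were tested and 3 were up-regulated (LOC685067, MGC108823 and Gbp3). LOC685067 (ENSRNOG00000029191, chr2:248219428-248239899) lies between Gbp5 and Gbp4, and its number is the RefSeq identifier of Gbp7, a GBP linked in mice to assembly of the NADPH oxidase. It stood at 23.1, 11.5 and 7.23 CPM in sham libraries and 49.3, 67.7 and 56.9 CPM in BCP libraries (log2 fold change 2.07, SE 0.45, edgeR adjusted p = 0.0363). Its sham libraries were ordered as those of the GBP members were, and with 1 library left out it still passed only where that was sham library 1. Without sham library 3 its log2 fold change was 1.76 (edgeR adjusted p = 0.0633). Counted as the member Gbp7, it would make 4 of 8 members past the thresholds.

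MGC108823, described as similar to an interferon-inducible GTPase, rose from 9.08, 7.47 and 3.24 CPM to 29.3, 38.6 and 39.2 CPM (log2 fold change 2.45, SE 0.37, edgeR adjusted p = 0.00991). Gbp3 had 1, 3 and 2 counts in sham libraries and 13, 20 and 12 counts in BCP libraries (log2 fold change 2.94, SE 0.54, edgeR adjusted p = 0.000337). Irgq, a divergent relative of the IRGs, did not pass at 19.9 ± 0.557 CPM in sham and 17.5 ± 0.432 CPM in BCP libraries (SD, n = 3 each; edgeR adjusted p = 0.181). The remaining tested rows were Ifi30, a lysosomal thiol reductase (log2 fold change 2.21, SE 0.11, edgeR adjusted p = 1.55e-11), and Irg1, the enzyme that makes itaconate, with 0, 3 and 0 counts in sham libraries and 177, 181 and 285 counts in BCP libraries. The rows left untested were RGD1309362 and Irgc, with 0 to 5 counts in a library, and LOC100910934 and LOC102549198, with 0 counts in every library.

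LOC499229, whose number is the RefSeq identifier of the very large interferon-inducible GTPase Gvin1, was found by that identifier after values had been seen. It stood at 1.11 ± 0.185 CPM in sham and 30.2 ± 4.41 CPM in BCP libraries (SD, n = 3 each), a log2 fold change of 4.75 (SE 0.18, edgeR adjusted p = 1.60e-13). Unlike the members, it was higher in sham library 3 (1.28 CPM) than in sham library 1 (0.915 CPM) or 2 (1.12 CPM).

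The pathway that induces the GTPases was described with a list of 21 genes, of which 20 had a row and 19 were tested. Of these, 11 were up-regulated, against 6.35% of all tested genes, 0 were down-regulated, 15 had an adjusted p under 0.05 upward without regard to fold, against 15.8% of all tested genes, and 18 had an unadjusted p under 0.05, against 19.6%. Their median log2 fold change was 2.20. Ifng, the ligand, had 0 counts in all 3 sham libraries and 18, 25 and 18 counts in BCP libraries. Against a floor of 3 counts over the sham group it was at least 21.9-fold higher. The receptor genes Ifngr1 (log2 fold change 0.64, SE 0.09, edgeR adjusted p = 5.91e-05) and Ifngr2 (0.96, SE 0.08, adjusted p = 9.06e-09) were higher by less than 2-fold. So were the kinases Jak2 (0.69, adjusted p = 4.60e-06) and Jak1 (0.23, adjusted p = 0.000284).

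Irf1, a transcription factor that the pathway induces, rose from 14.5, 11.9 and 7.50 CPM to 81.7, 110 and 107 CPM (log2 fold change 3.15, SE 0.27, edgeR adjusted p = 0.00152). Irf8, a factor of myeloid cells, rose by 2.97 (SE 0.10), and Irf9, a DNA-binding factor of interferon signalling, did not pass (0.30, edgeR adjusted p = 0.554). Socs1, the inhibitor of the pathway, rose by 2.88 on the log2 scale (SE 0.49).

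Of the targets, Ciita, the activator of MHC class II genes, had 3, 2 and 1 counts in sham libraries and 448, 750 and 662 counts in BCP libraries. The chemokines Cxcl9 (log2 fold change 5.73) and Cxcl10 (3.28, edgeR adjusted p = 0.0383) passed, and Cxcl11 (2.67, adjusted p = 0.0934) did not. Psmb9 (2.56) and Psmb8 (2.12) of the immunoproteasome, the peptide transporter Tap1 (2.20) and the MHC class I light chain B2m (2.05) rose by amounts near those of the GTPases. Cd274, the ligand PD-L1, did not pass (1.10, edgeR adjusted p = 0.0515). Ido1 was not tested, with 5, 0 and 1 counts in BCP libraries and 0 in sham libraries, and Nos2 had no row. Sham library 3 was the lowest sham library for 15 of the 19 genes.

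**Figure D4:**
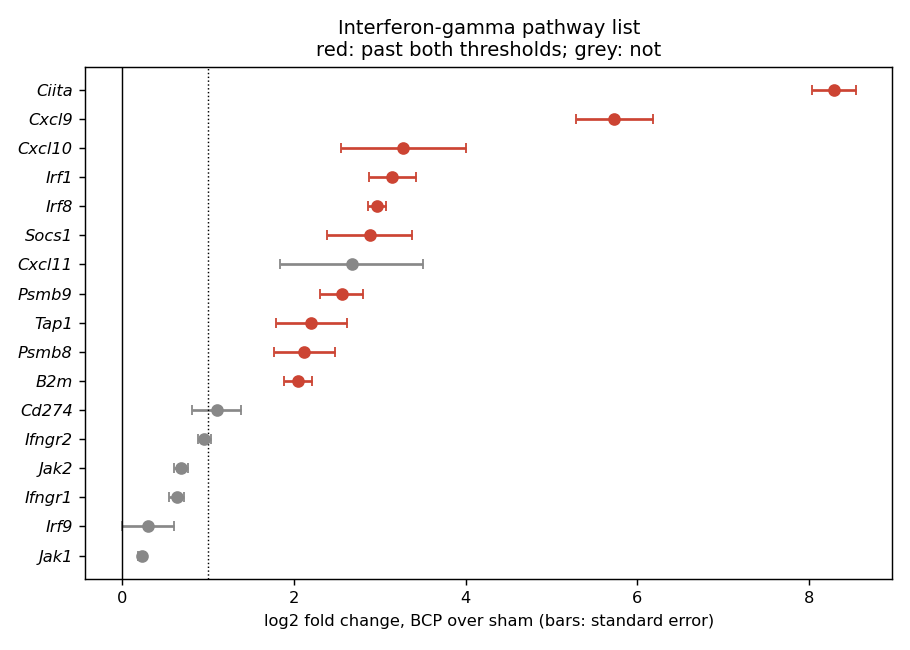
Log2 fold change of BCP over sham with its standard error for the tested genes of the interferon-gamma pathway list that are described here (Ifng, with 0 sham counts, is left out), with a dotted line at a 2-fold change. Red genes passed both thresholds and grey genes did not, among them Cd274 at 1.10.

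GBPs and IRGs also respond to type I interferons, and 18 genes of that response were listed, of which 15 were tested. In edgeR 0 of the 15 passed the thresholds, against 6.35% of all tested genes, and 8 had an unadjusted p under 0.05, against 19.6%. That count depended on the fit, since DESeq2 passed 5 and edgeR without robust estimation 8, where it passed 14 of the 19 genes of the interferon-gamma list. The median log2 fold change was 1.14, and sham library 3 was the lowest sham library for 13 of 15. The number of genes past the thresholds in this list and in the interferon-gamma list was not tested for a difference, and the lists share their libraries. Proteins that work with the GTPases formed a list of 12 genes, all tested, of which 6 were up-regulated, against 6.35% of all tested genes. These were the inflammasome genes Casp1 (log2 fold change 1.96), Casp4 (2.44), Gsdmd (1.05), Aim2 (2.74), Pycard (2.44) and Nlrp3 (2.07), which encode sensors, the adaptor, the proteases and the pore. The 6 autophagy genes Atg5, Atg7, Atg16l1, Gabarap, Gabarapl2 and Map1lc3b, whose conjugation system loads GBPs and IRGs onto vacuoles, had log2 fold changes from -0.10 to 0.27. Of them only Gabarap had an edgeR adjusted p under 0.05 (0.000653), at a change under 2-fold.

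The 4 GBP members lie in 1 cluster on chromosome 2 with LOC685067 and Gbp3, Irgm and Ifi47 lie together on chromosome 10, and Igtp lies apart on chromosome 10. Within 100 kb of a member were 22 other rows, of which 10 were tested and 1 was up-regulated (6.35% of all tested genes were). It was RGD1559575 (ENSRNOG00000032396, chr10:34232615-34242985), which lies between Irgm and Ifi47 and is annotated with GTP binding. It rose from 1.34 ± 0.303 to 12.2 ± 1.61 CPM (SD, n = 3 each), a log2 fold change of 3.17 (SE 0.21, edgeR adjusted p = 6.67e-10). The other tested neighbours had log2 fold changes from -0.20 to 0.38, and the median of the 10 was 0.0045. Mrpl22, a mitochondrial ribosomal protein gene 1810 bases from Igtp, stood at 8.36 ± 0.706 CPM in sham and 8.31 ± 1.53 CPM in BCP libraries (SD, n = 3 each).

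**Figure D5:**
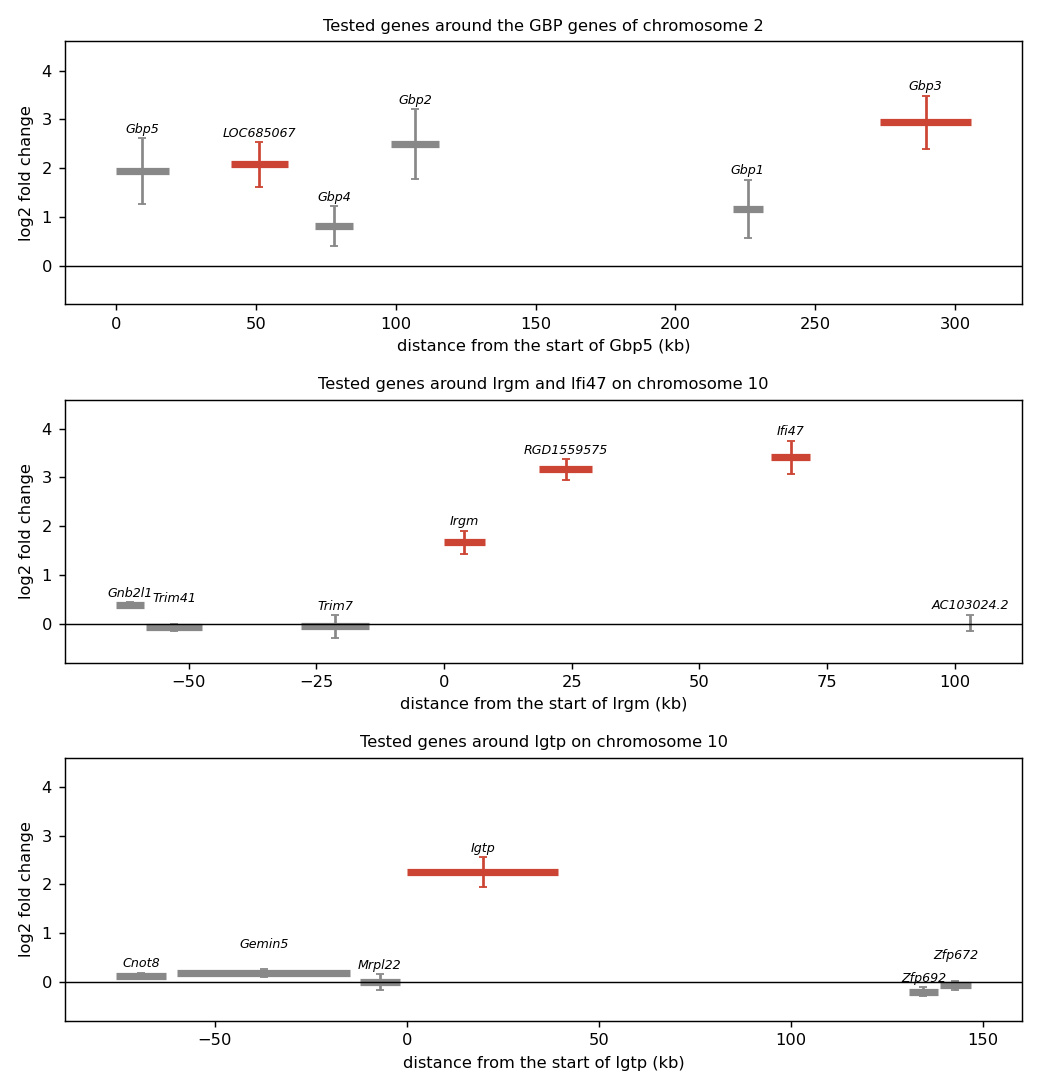
Log2 fold change of BCP over sham for tested genes around the members, against distance in kb from the start of Gbp5, Irgm or Igtp, with horizontal bars for gene spans and vertical bars for standard errors, red past both thresholds and grey not. The genes next to Irgm, Ifi47 and Igtp stand near 0 except RGD1559575 at 3.17, and the chromosome 2 panel holds GBP genes only.

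Of 3 long noncoding RNAs (lncRNAs) within 10 kb of a member, 1 was tested and 0 passed in edgeR, against 1.14% up-regulated and 0.074% down-regulated among the 12157 lncRNAs tested. NONRATT004315.2 (chr10:43654400-43655655) begins 1010 bases after the end of Igtp. It had 376, 345 and 209 counts in sham libraries and 888, 1462 and 1198 counts in BCP libraries, so the order of the libraries was that of Igtp. Its log2 fold change was 2.05 (SE 0.32, edgeR adjusted p = 0.0707, with an unadjusted p under 0.05), and it passed in DESeq2 and without sham library 3. NONRATT004316.2, also next to Igtp, had 4 to 15 counts in a library, and NONRATT015833.2, inside the span of Gbp4, had 1 to 3. Whether reads were assigned by strand is not given in the sources used here, so reads of a gene that run past its annotated end cannot be told from a separate transcript.

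Markers of several cell types were higher or lower in BCP rats along with the members, and their part in the result was not tested. Summed T cell markers stood at 7.43 to 9.01 CPM in sham and 58.3 to 67.4 CPM in BCP libraries, with 9 of 9 tested genes up-regulated. The share to set beside this and the following counts of up-regulated genes is 6.35% of all tested genes. Summed NK cell markers stood at 0.541 to 0.978 and 36.5 to 58.3 CPM, with 6 of 6 up-regulated among them 1 of the 2 rows named Gzmb, with 0, 0 and 1 counts in sham and 14, 33 and 47 counts in BCP libraries, while the other Gzmb row was at 0 counts throughout. Microglia markers stood at 231 to 293 and 604 to 710 CPM, with 4 of 9 up-regulated and Siglech at 0 counts. Neutrophil markers stood at 8.72 to 10.1 and 29.3 to 34.0 CPM (2 of 2 tested), and red blood cell markers at 24.4 to 28.0 and 61.7 to 77.8 CPM (3 of 3). The neutrophil sum was mostly Csf3r, at 7.97 to 9.91 CPM in sham and 23.8 to 31.9 CPM in BCP libraries. S100a8 had 0 to 1 counts in sham and 10 to 23 in BCP libraries. Mpo, Elane, Camp, Ngp and S100a9 were not tested, with at most 15 counts in a library. B and plasma cell markers stood at 0.210 to 0.541 and 0.929 to 1.14 CPM, and none was tested.

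Endothelial markers stood at 385 to 402 CPM in sham and 390 to 422 CPM in BCP libraries (0 of 6 up-regulated in edgeR and in DESeq2, 0 with an unadjusted p under 0.05). Monocyte and macrophage markers stood at 204 to 211 and 200 to 237 CPM (0 of 5 by the same measures). That sum was mostly Vcan, at 185 to 197 CPM in sham and 187 to 223 CPM in BCP libraries. Mrc1, Cd163, Lyve1 and F13a1 each stood at 8.78 CPM or less in every library. Ccr2 was not tested, with 0 to 1 counts in a library. This limits the sum as a measure of monocytes and macrophages. Astrocyte markers stood at 5803 to 6184 and 7444 to 9282 CPM, with 0 of 7 past the thresholds in edgeR or DESeq2 and a median log2 fold change of -0.0048. Of the 4 with an unadjusted p under 0.05, Gfap was higher (0.80) and Slc1a2 (-0.37), Aldh1l1 (-0.26) and Aldoc (-0.18) were lower. Aqp4 stood at 2415 CPM in BCP library 1 and at 354 to 379 CPM in the other libraries, which enters the sum. Oligodendrocyte markers were lower, at 38298 to 43528 CPM in sham and 27409 to 30592 CPM in BCP libraries, with 6 of 6 at an adjusted p under 0.05 and 0 past the fold threshold in edgeR or DESeq2. Neuron markers stood at 3465 to 3691 and 3221 to 3529 CPM, with 4 of 8 (Stmn2, Slc6a5, Slc32a1 and Rbfox3) lower at an adjusted p under 0.05 and 0 past the fold threshold in edgeR or DESeq2. Markers of meninges, nerve roots and muscle passed in 0 of 5, 0 of 6 and 0 of 2 genes in edgeR and in DESeq2, with 2, 3 and 1 at an unadjusted p under 0.05. All of the latter were lower in BCP libraries. Of all 14908 tested genes, 1805 were lower at an adjusted p under 0.05 without regard to fold. The share lower at an unadjusted p under 0.05 was not computed. Igf2 (log2 fold change -0.94), Ptgds (-0.30), Calca (-0.66) and Trpv1 (-0.70) had an edgeR adjusted p under 0.05. Summed nerve root markers stood at 128 to 142 CPM in sham and 92.6 to 115 CPM in BCP libraries. The meninges and muscle sums overlapped between groups.

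Within the sham group, the members' summed level was 289, 197 and 84.2 CPM in libraries 1, 2 and 3. Over the same libraries the T cell markers were at 8.46, 9.01 and 7.43 CPM and the microglia markers at 293, 279 and 231 CPM. Sham library 3 was the lowest for each of these sums, and the members spanned more than the markers did. Most of the T cell sum in sham libraries was Cd4, at 4.42, 5.66 and 5.20 CPM. There Cd3d, Cd3e, Cd3g, Cd8a, Cd8b and Cd247 had 0 to 2 counts, which limits that sum as a measure of T cells.

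The profile over the 6 libraries that was most like the members' mean belonged to Mb21d1, which encodes the DNA sensor cGAS. Centred on the sham mean of log2 CPM, the members' mean profile was 0.72, 0.35 and -1.07 in sham libraries and 1.90, 2.35 and 2.14 in BCP libraries. The root mean square difference from it over the 6 libraries was 0.0686 for Mb21d1 and 0.108 for the membrane protein gene Tmem106a. It was 0.124 for Mlkl, which encodes the effector of necroptosis, 0.151 for the MHC class I gene RT1-A2 and 0.154 for Psmb8. For the members it ran from 0.271 (Igtp) to 0.966 (Ifi47), so their mean was not the profile of any single member. Mb21d1 had only 18, 16 and 5 counts in sham libraries.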

How the data were processed

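Strand-specific libraries, 3 from BCP and 3 from sham-operated rats, were assigned to groups from their titles. Reads cleaned with Seqtk had been aligned by the authors with HISAT2 2.0.4 to the Rnor_6.0 genome, and StringTie 1.3.0 gave the FPKM values. The authors deposited raw counts and FPKM values for each gene and each lncRNA transcript. The counter, its strand setting and its handling of reads with several locations are not given in the sources used here.

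The quasi-likelihood test of edgeR 4.0.16 (R 4.3.3) was run on the deposited counts, with its filter on expression, TMM normalization, robust estimation, condition as the only term and Benjamini-Hochberg adjustment over all tested genes or lncRNAs. The thresholds, an adjusted p under 0.05 and a log2 fold change over 1 in size, follow the study. CPM were computed with TMM factors, and standard errors are the log2 fold change over the root of F. The members' shares were computed from the deposited FPKM. On simulated data with 197 changed of 14801 genes, edgeR recovered 99% of the changed genes and made 1 false call. Every simulated gene had the common coefficient of variation between libraries, 7.72%. The members varied more than that between sham libraries, so the simulation does not give the recovery for genes like them.

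The alternatives were DESeq2 1.42.0, other scaling, filters and fold thresholds, the replicate number as a block, each library left out, and, chosen after seeing the data, LOC685067 counted as Gbp7, summed family counts and no robust estimation. The members and gene lists were chosen with earlier results of these data known. Named were all members, related rows and interferon-gamma list genes, called genes of the other lists (1 gene of the interferon-gamma list is counted but not reported here), called neighbours and the 5 genes most like the members. Promoters within 250 bases before the start were searched in RefSeq's GRCr8 table, whose coordinates differ from those of the files. Figures were drawn with matplotlib 3.10.9.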

Additional observations from a re-analysis of the deposited data

How the results depend on the processing

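Of the 7 members, 3 passed under other scaling, either filter on low counts, no fold threshold and each library left out in turn, Gbp1 being left untested with at least 10 counts in every library. DESeq2 passed 5, edgeR without robust estimation 5, a test against a fold change of 2 passed 1, and of the summed family counts 1 of 2 passed. Gbp2 had log2 fold changes of 2.49 in DESeq2 and 2.49 without robust estimation (adjusted p = 0.00429 and 0.00106), and Gbp5 had 1.92 and 1.94 (0.0380 and 0.00384). In the test against a fold change of 2, Irgm (1.67, adjusted p = 0.200) and Igtp (2.25, 0.105) no longer passed. Over all genes 962 passed, 4157 without a fold threshold, 548 against a fold change of 2 and 898 to 1048 with a library left out.

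The related rows passing were 5, a count that includes Ifi30 and Irg1, which encode no GTPase, wherever they were tested. It was 3 with at least 10 counts in every library, 3 against a fold change of 2 and 4 to 5 with a library left out. The interferon-gamma list had 11, 14 without robust estimation, 7 with at least 10 counts in every library and 8 to 13 with a library left out. The type I list had 0, 2 without a fold threshold, 5 in DESeq2, 8 without robust estimation and 0 to 2 with a library left out (1 without sham library 2 and 2 without sham library 3). The partner list had 5 to 6 with a library left out. Of the neighbours 1 passed, and 2 without a fold threshold. Of the lncRNAs near members 0 passed, 1 in DESeq2 and 0 to 1 with a library left out (1 without sham library 3). With a library left out, the difference in share, BCP minus sham, ran from -3.19 to 0.958 percentage points for Gbp5, turning positive without sham library 1, and from -2.87 to 0.971 for Igtp, turning positive without sham library 3. The cause of these changes was not tested.

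The labels do not say whether the replicate numbers pair the samples. Over all tested genes, each library's deviations from its group mean of log2 CPM were correlated between sham and BCP libraries. Same-numbered libraries had correlations of -0.105, 0.0439 and -0.0353, and the other pairs ran from -0.119 to 0.139. With the number as a block, 2 members passed, Igtp being lost (2.27, adjusted p = 0.0682), 3 related rows and 923 genes. Counts of 6 for Gbp1 in sham library 3 and of 1 to 3 for Gbp3 limit those values.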
